A study of Mus musculus with 9 samples.

Results

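GR and MR binding sites were compared in N2A cells, a mouse neuroblastoma line, after corticosterone (CORT). The members were the MACS2 peaks of GR and of MR after CORT that lay outside the coding exons of the receptor genes Nr3c1 and Nr3c2. There were 25191 such peaks, 10583 of GR and 14608 of MR, among the 30508 peaks of the 6 peak lists of the study. A further 19 GR peaks and 30 MR peaks lay in those coding exons and were left out. The cells had been transiently transfected with both EGFP-GR and mCherry-MR, in every sample including the input, and then received 100 nM CORT over 20 minutes. GR was precipitated with a GFP trap and MR with an RFP trap, so each list came from cells that held both tagged receptors. Input chromatin of the same CORT treatment was not precipitated. The vehicle and washout lists of the same receptors were used only as further readouts at the CORT sites, the washout being the same CORT pulse followed by 2 washes and 40 minutes without steroid. The plasmids encoded rat receptors according to the study's methods, whereas the design text of the series says mouse. N2A cells have no MR of their own and some endogenous GR, and the tagged receptors were overexpressed, which limits the cells as a model of native neurons.

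The assay was ChIP-nexus, in which an exonuclease trims precipitated DNA up to the point where the protein is crosslinked. The 3 replicates of each condition had been combined into 1 list per receptor. There was therefore no spread between replicates, no p-value was computed between the lists, and each comparison is between these libraries. The study also called peaks in single replicates. It reports far fewer GR than MR sites called in more than 1 of the 3, both numbers well below the combined lists. Which single-receptor sites recurred between replicates was not tested here. Percentages carry 95% intervals (Wilson for a share, Newcombe for a difference of shares, exact binomial for a median) that cover counting error only. The peak lists do not carry read depth. The strength of a peak is its −log10 p against input, which grows with depth, so it was used only as a rank within a list, given as a percentile from 0 to 100 with 100 the highest. It ran from 4.35 to 70.8 for GR and from 4.56 to 60.2 for MR. Many peaks were tied, with 1190 different values in the GR list and 1399 in the MR list. GR peaks had a median width of 121 bp and MR peaks of 62 bp.

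GR and MR are nuclear receptors that both bind CORT, MR with the higher affinity. Both bind the glucocorticoid response element (GRE), an inverted repeat of 2 arms 3 bases apart, usually as dimers. GR is known for ligand-dependent binding at enhancers far from gene starts, and also for binding through other factors without a GRE. MR is known for regulating sodium transport in epithelia and, in neurons, for responding to low CORT levels.

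The sequences of the top-ranked sites of each class are shown to set the bases beside the ranks. A site was called common when GR and MR peaks overlapped by at least 1 bp, and GR only or MR only otherwise. Capitals mark the best match to a GRE with the arms AGAACA and TGTTCT, allowing up to 3 mismatches over the 12 arm bases, in a window reaching 100 bp to either side of the summit. The pattern is its own reverse complement, so both strands give the same match. Sequences are the plus strand of GRCm38 (mm10) as held by RefSeq. The first is the highest common site, at chr8:123786448-123786502 in an intron of the long gene model Gm20388, with 2 mismatches. The next lines are the highest GR-only site (chr9:35305417-35305471, in an intron), which had no GRE and overlapped both an input border pair and a vehicle peak, and the highest GR-only site with a GRE and neither of these (chr15:98992184-98992238, an exon of a non-coding transcript model). The highest MR-only sites follow, without a GRE (chr2:160334243-160334297, intergenic, 108 bp upstream of Gm826) and with a GRE (chr11:84723856-84723910, intergenic).
Highest common site, nearest start Rab4a: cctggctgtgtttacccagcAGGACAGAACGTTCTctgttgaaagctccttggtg
Highest GR-only site, nearest start Rpusd4: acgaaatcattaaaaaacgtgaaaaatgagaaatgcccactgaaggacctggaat
Highest GR-only site with a GRE, nearest start Tuba1c: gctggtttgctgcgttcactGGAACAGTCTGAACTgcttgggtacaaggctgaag
Highest MR-only site, nearest start Gm826: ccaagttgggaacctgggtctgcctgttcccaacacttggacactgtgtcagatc
Highest MR-only site with a GRE, nearest start Mrm1: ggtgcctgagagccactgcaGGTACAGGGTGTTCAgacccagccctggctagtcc

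The next set shows common sites at genes that the study names, and the common sites with a GRE where the receptors ranked most differently in each direction. The Fkbp5 sites lay in introns at chr17:28512873-28512927, the highest, and at chr17:28420301-28420355, where the GRE had 0 mismatches. The Ddc site lay in an intron at chr11:11844603-11844657. The Foxo3 site, intronic at chr10:42251412-42251466, ranked high for GR and low for MR. The Gramd2 site, intronic at chr9:59694994-59695048, ranked high for MR and low for GR. Sequences other than the highest of each class were picked after the values were seen.
Fkbp5, highest common site with a GRE: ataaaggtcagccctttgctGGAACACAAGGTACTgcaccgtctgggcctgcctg
Fkbp5, common site with a perfect GRE: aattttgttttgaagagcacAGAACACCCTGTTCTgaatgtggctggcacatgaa
Ddc, highest common site: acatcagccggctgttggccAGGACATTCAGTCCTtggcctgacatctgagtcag
Foxo3, GR rank above MR rank: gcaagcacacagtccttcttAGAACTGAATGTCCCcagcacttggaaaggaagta
Gramd2, MR rank above GR rank: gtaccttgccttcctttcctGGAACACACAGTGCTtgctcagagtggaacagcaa
The sites of Foxo3, Gramd2 and Ddc and the highest of Fkbp5 were selected for holding a GRE, and their best matches had 3 mismatches.

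Peaks linked by overlap formed 6350 common sites, 4130 GR-only sites and 7674 MR-only sites. Common sites held 61.0% of GR peaks (60.04 to 61.9) and 47.5% of MR peaks (46.7 to 48.3). Of the common sites, 5734 joined 1 GR peak with 1 MR peak, 515 joined 1 GR peak with several MR peaks, 69 joined several GR peaks with 1 MR peak, and 32 held several of both. Where 1 peak of each receptor met, the summits lay a median of 25 bp apart (24 to 26). GR peaks that spanned several MR peaks were wider, with a median of 262 bp against 139 bp, and ranked higher, at percentile 75.4 against 63.0. A GR peak must be wide to meet several MR peaks, so the width difference follows in part from the grouping. The number of common sites depended on the overlap asked for. When each peak had to cover 50% of the other, 31.4% of GR peaks and 22.8% of MR peaks were common.

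Sites of a single receptor ranked low in their lists, and a minority lay within 1 kb of the other receptor. The median percentile was 33.2 for GR-only sites and 34.5 for MR-only sites. At common sites it was 63.0 for GR and 69.7 for MR. The nearest MR summit lay a median of 6532 bp (5772 to 7478) from a GR-only site, and the nearest GR summit 13708 bp (12601 to 14590) from an MR-only site. Within 1 kb, 30.1% of GR-only sites and 24.4% of MR-only sites had a summit of the other receptor. The part of the unequal list lengths in these distances was not tested.

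GR-only sites lay nearer to gene starts than MR-only sites. A gene start lay within 1 kb of the summit for 12.1% of GR-only sites (11.1 to 13.1, 499 of 4122), 9.57% of common sites (605 of 6325) and 7.002% of MR-only sites (6.45 to 7.60, 534 of 7626). Sites on unplaced sequence were left out of these counts. GR-only sites exceeded MR-only sites by 5.10 percentage points (3.97 to 6.27). They also exceeded common sites, by 2.54 points (1.32 to 3.79). The median distance to a start was 11866 bp for GR-only sites, 13438 bp for common sites and 14875 bp for MR-only sites. The order was the same as for the shares, and the intervals of GR-only and MR-only medians did not overlap (11201 to 12614 and 14343 to 15462).

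**Figure D1:**
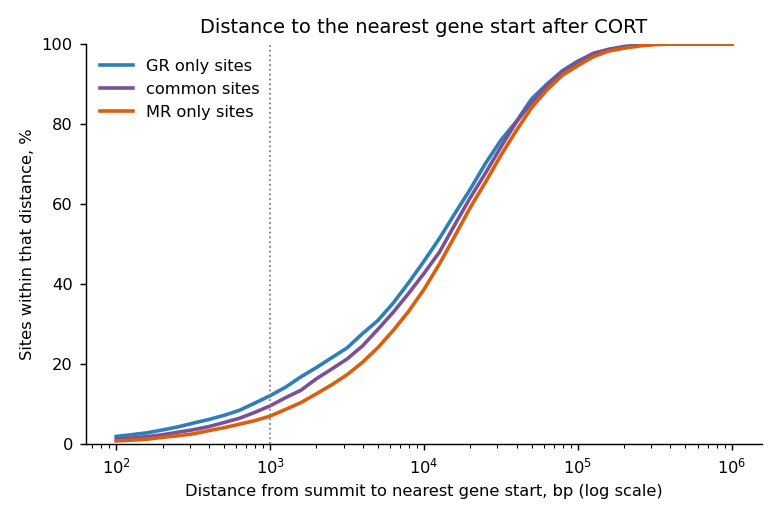
Percentage of sites (y axis) with the nearest annotated gene start within a given distance of the summit (x axis, bp, log scale), for GR-only, common and MR-only sites, with a dotted line at 1 kb. At 1 kb the curves stand at 12.1%, 9.57% and 7.002%.

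The excess of GR-only sites at gene starts was seen at every level of peak rank. When each list was split into 5 equal bands of rank, the share within 1 kb of a start ran from 11.6% to 18.6% for GR-only sites and from 6.57% to 7.29% for MR-only sites. The difference was 4.87 points in the lowest band, 4.78, 4.40 and 5.49 points in the next 3, and 12.05 points (5.99 to 19.4) in the highest, where 145 GR-only and 487 MR-only sites remained. None of the 5 intervals included 0. Among sites with no summit of the other receptor within 5 kb, the shares were 14.1% for GR only and 7.33% for MR only. This last comparison was chosen after the data were seen.

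**Figure D2:**
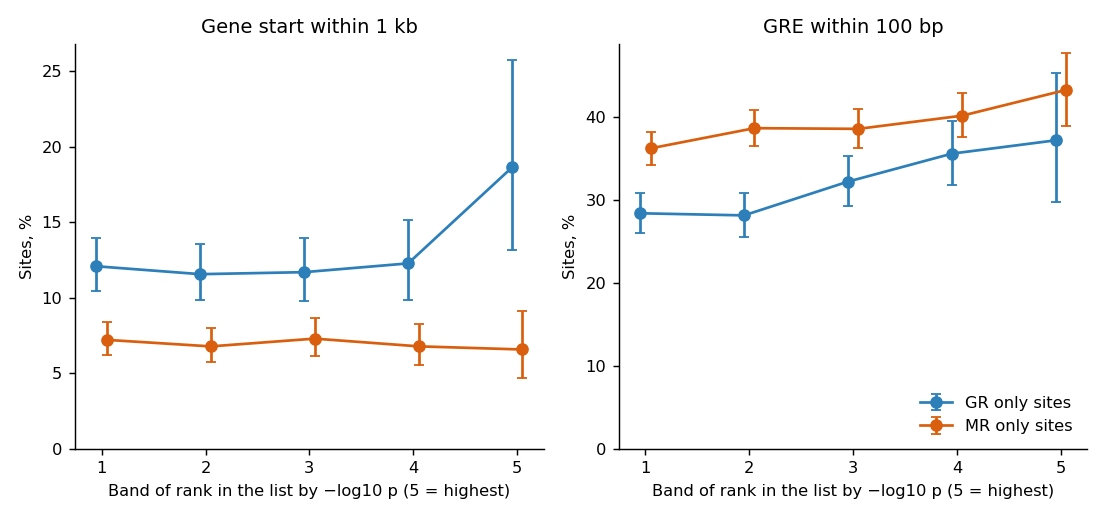
Percentage of GR-only and MR-only sites (y axes) with a gene start within 1 kb (left) and with a GRE within 100 bp (right), by rank band of each receptor's list sorted on −log10 p (x axis, band 5 the highest), with 95% Wilson intervals. GR-only points lie above MR-only points on the left and below them on the right in all 5 bands.

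Counted by gene, the receptors were near equal at starts although MR-only sites were more numerous. Of 21951 protein-coding genes, 741 had a GR summit and 732 an MR summit within 1 kb of the start, and 417 had a common site there. A GR-only site without any other site marked 295 starts, and an MR-only site alone marked 286. Among GR-only sites within 1 kb of a protein-coding start that overlapped no vehicle peak or input border pair, the highest lay 265 bp upstream of Psme4, a proteasome activator (GR percentile 93.5), 346 bp upstream of Kmt2b, a histone H3 lysine methyltransferase (91.3), and 140 bp upstream of Dus1l (90.4). The highest MR-only sites at starts were those of Gm826 (MR percentile 97.6) and Mitf, the melanocyte transcription factor, 364 bp downstream of its start (96.6). These start sites were listed after the data were seen.

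On which side of the start a site lay also differed. Within 1 kb, 42.5% of GR-only sites were upstream of the start, against 50.2% of common sites and 50% of MR-only sites. The difference between GR-only and MR-only sites was −7.52 points (−13.5 to −1.43). Summits lay in introns at 55.2% of GR-only, 56.5% of common and 59.1% of MR-only sites, and in UTRs at 3.42%, 2.70% and 2.33%. GC content within 100 bp of the summit had a median of 51.2% at both GR-only and common sites and 49.3% at MR-only sites. Within 1 kb of a start these medians were 54.7%, 55.2% and 52.2%. The part of base composition in these differences was not tested.

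GREs were less frequent at GR-only sites. A GRE with at most 3 mismatches lay within 100 bp of the summit at 30.6% of GR-only sites (29.2 to 32.0), 42.8% of common sites (41.6 to 44.0) and 38.5% of MR-only sites (37.5 to 39.6). Among windows of the same length 1 kb to each side of the summits, 14.5%, 14.5% and 15.6% held it, so all 3 classes stood above their flanks. GR-only sites were below common sites (difference −12.2, −14.05 to −10.3) and below MR-only sites (difference −7.97, −9.74 to −6.18). The same order held with at most 2 mismatches (8.15%, 12.3% and 11.4%) and with at most 4 (72.8%, 83.5% and 81.8%). The difference between GR-only and MR-only sites depended on the peak threshold. With only peaks of −log10 q of at least 5 kept in both lists, the shares were 39.3% and 39.7% and the difference was −0.37 points (−3.08 to 2.38). In those shorter lists a site also counted as single where the peak of the other receptor had a lower −log10 q.

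By rank, the GRE share of GR-only sites went from 28.4% in the lowest band to 37.2% in the highest, and that of MR-only sites from 36.3% to 43.3%. GR-only sites were lower in all 5 bands, but the interval of the difference included 0 in the upper 2 (−4.59, −9.20 to 0.15, and −6.09, −14.8 to 3.10). Near gene starts the pattern was the same. Within 1 kb of a start, 25.7% of GR-only, 40.0% of common and 34.3% of MR-only sites had a GRE, against 14.3%, 13.3% and 14.3% of their flanking windows. Where both receptors had 1 peak each, the GRE share was 42.9% around the GR summit and 43.1% around the MR summit of the same 5709 sites. The summits of such sites lay a median of 25 bp apart, so the 2 windows largely overlap. These shares therefore cannot test the precision of the GR summit, and they do not cover GR-only sites.

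**Figure D3:**
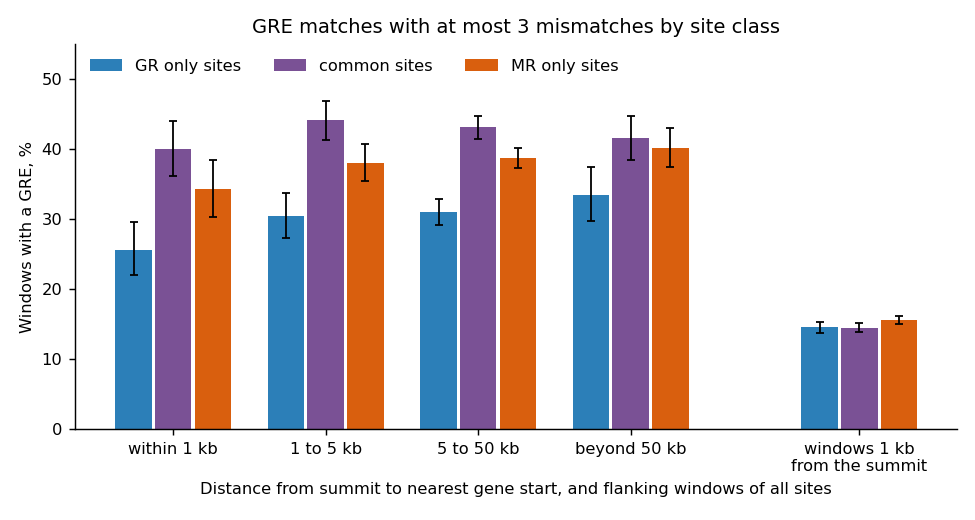
Percentage of windows with a GRE of at most 3 mismatches (y axis) at GR-only, common and MR-only sites, by distance from the summit to the nearest gene start, and in windows 1 kb to each side of all summits at the right (95% Wilson intervals). GR-only sites are the lowest of the 3 classes in every distance group, 25.7% within 1 kb of a start, and the flanking windows lie between 14.5% and 15.6%.

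Single-receptor sites close to the other receptor had fewer GREs than isolated ones. Among GR-only sites the share was 23.2% (20.9 to 25.6) within 1 kb of an MR summit and 34.9% (32.9 to 36.9) beyond 5 kb. Among MR-only sites it was 28.2% (26.2 to 30.2) within 1 kb of a GR summit and 42.8% (41.4 to 44.2) beyond 5 kb. GR-only sites were lower than MR-only sites in both groups, with a difference of −7.95 points (−10.4 to −5.50) beyond 5 kb.

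Border pairs and washout peaks were set beside the classes. Border pairs, the stretches between exonuclease stops on opposite strands called by MACE, numbered 3285 for MR, and met 18.7% of common sites (17.7 to 19.7), 4.26% of MR-only sites (3.83 to 4.74) and 1.60% of GR-only sites (1.26 to 2.03). These MR pairs come from the same MR libraries as the peaks that define the classes, so the low share at GR-only sites follows in large part from the rule. Border pairs of the CORT input met 0.677%, 0.391% and 0.460%. The GR border-pair list used here is shorter than the study's text describes, so its overlaps with the classes are not given. After washout, an MR peak was called at 43.1% of common sites (41.9 to 44.4), 10.5% of MR-only sites (9.87 to 11.2) and 5.67% of GR-only sites (5.00 to 6.41). A GR peak was called after washout at 3.02% of common sites, 0.412% of GR-only sites and 0.195% of MR-only sites. By definition GR-only sites had no MR peak after CORT, so an MR washout peak there was called only after washout. Common sites overlapped washout peaks of either receptor more often than single-receptor sites did, and they also ranked higher after CORT.

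At the level of genes, most genes with one receptor within 5 kb also had the other. Of 55450 annotated genes, 4492 had peaks of both receptors in the gene or within 5 kb, 1222 had GR only and 2215 had MR only. MR was present at 78.6% of genes with GR (77.5 to 79.7) and GR at 67.0% of genes with MR (65.8 to 68.1). These shares cannot be set against those of single peaks, since a gene with 5 kb to each side is a wider unit than a peak. Among genes with both, 3949 (87.9%, 86.9 to 88.8) held peaks of a common site, and 543 had the receptors at separate sites only. Most single-receptor genes rested on 1 peak, 91.7% of GR-only genes (90.1 to 93.2) and 83.3% of MR-only genes (81.6 to 84.7). The greater number of MR-only genes went with the longer MR list. When the MR list was shortened to as many of its strongest peaks as there were GR peaks, 1743 genes had GR only and 1506 had MR only.

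The number of peaks per gene followed the same line. In genes with both receptors, MR peaks outnumbered GR peaks in 38.1% (36.7 to 39.5), the numbers were equal in 48.2%, and GR peaks were more numerous in 13.7% (12.8 to 14.8). With lists of equal length these shares were 24.4% for more MR peaks and 24% for more GR peaks, so the tilt towards MR was not seen. Across the 4492 genes Spearman's rho between the numbers of GR and MR peaks was 0.650, a description over genes that are not independent and that differ in length. Exactly 1 peak of each was found in 1615 genes, and 5 or more of each in 333.

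Longer genes more often had both receptors. Among protein-coding genes, 6.07% of those under 10 kb had both, 12.7% of those of 10 to 50 kb, 26.5% of those of 50 to 200 kb and 39.9% of those over 200 kb. Of the genes with any peak in these length groups, 52.2%, 53.7%, 63.0% and 75.5% had both. The median length was 45.0 kb (42.1 to 48.6) for genes with both, 34.1 kb (31.4 to 37.7) for MR-only genes and 23.1 kb (20.5 to 25.5) for GR-only genes, and 13.7 kb for genes without a peak. GR-only genes were thus the shortest of the 3 bound classes, and their intervals did not overlap.

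The genes with the most peaks of both receptors were long. Gm20388, a gene model that spans many others, held 258 GR and 315 MR peaks and was set aside here. Slit3, a secreted axon guidance ligand with a gene of 587 kb, had 31 GR and 52 MR peaks. Frmd4a, a scaffold protein of cell polarity, had 25 and 36. Fgfr2, a fibroblast growth factor receptor whose annotated span here is 2961 kb, had 19 and 27. Only the Gm20388 span was set aside, so peaks of any other genes within the Fgfr2 span count here too. Myo16, an unconventional myosin, had 22 GR and 21 MR peaks. Of the genes of this group, Myo16 was the only one with more GR than MR peaks. Slit3 showed 22 of its 31 GR peaks and 28 of its 52 MR peaks in common sites. Over all peaks, common sites held 61.0% of GR peaks and 47.5% of MR peaks.

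Genes with several peaks of MR and none of GR were led by Arsb, a lysosomal sulfatase, and Cdc42se2, a Cdc42 effector, with 6 MR peaks each. Fam171a1 and Fign, the latter a microtubule-severing ATPase, followed with 5 each. The highest peaks of these genes reached MR percentiles of 84.9, 86.0, 58.4 and 92.3. GR peaks without MR were fewer per gene, at most 3, in Crcp and in Lpin3, a phosphatidate phosphatase. Lpin3 reached GR percentile 87.9 and Crcp 25.96. 1700001O22Rik and 9030612E09Rik had 2 GR peaks each.

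Gene lists were read against all 21951 protein-coding genes, of which 14.1% had peaks of both receptors, 3.58% GR only and 6.39% MR only. The lists were chosen with results of these data known, and gene length moves with the classes, so their counts are descriptions. Of 24 glucocorticoid-induced regulators, 11 had both receptors, 1 had GR only, 1 had MR only and 11 had neither. Nfkbia, the inhibitor of NF-κB, had 1 GR peak at percentile 99.99 and 3 MR peaks reaching 99.8. Cdkn1a, a cell cycle inhibitor, had highest peaks at 99.2 for GR and 99.6 for MR. Both genes thus ranked near the top of both lists. Other members ranked unequally. Lcn2, which encodes lipocalin 2, had 1 common site at GR percentile 20.3 and MR percentile 99.6. At their highest peaks, Zbtb16 reached 56.8 for GR and 95.7 for MR, and Ddit4, an inhibitor of mTOR signalling, 96.5 for GR and 58.4 for MR. In Zbtb16 and Ddit4 the highest GR and MR peaks may lie at different sites. The member with GR only was the metallothionein Mt2 (percentile 18.3), and the member with MR only was Tsc22d3, which encodes GILZ (25.97).

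Of 20 genes of sodium transport and MR targets, 7 had both receptors, 3 MR only and 0 GR only, with 11 GR and 21 MR peaks in all. Scnn1b, a subunit of the epithelial sodium channel, had 3 GR and 6 MR peaks. The MR-only members were the kinases Wnk1 and Stk39, and Hsd11b2, the enzyme that inactivates CORT, with highest peaks between MR percentiles 34.5 and 55.9. Of 14 genes of catecholamine synthesis and handling, 5 had both and 3 MR only, Gch1 and Pts among them. Th, the rate-limiting enzyme of catecholamine synthesis, had 2 GR and 5 MR peaks with highest percentiles of 87.9 and 97.6. Slc18a1, a vesicular monoamine transporter, had 1 GR and 4 MR peaks at 98.5 and 98.9. Slc18a2, the other vesicular transporter, had more GR peaks, 7 against 5. Of 17 synaptotagmins, the calcium sensors of vesicle release, 8 had both and 3 MR only (Syt11, Syt12 and Syt17). Syt9 had 5 GR and 9 MR peaks and Syt1 5 and 8. With lists of equal length, sodium transport had 1 gene with GR only and 3 with MR only, catecholamine genes 0 and 2, and synaptotagmins 0 and 3. With −log10 q of at least 5 they had 0 and 3, 0 and 1, and 2 and 4. Over all protein-coding genes, each symbol counted once, the numbers were 1109 and 969 with equal lists and 491 and 1314 at that threshold. The list counts are small and carry no test. With the full peak lists, 3.58% of protein-coding genes had GR only, which would give few or no such genes in lists of 14 to 20.

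Of 10 DUSP phosphatases, which switch off MAP kinases, 6 had both and 1, Dusp10, GR only. Of 12 AP-1 factors, which join GR at many enhancers, 6 had both, with Fos at GR only (percentile 8.98) and Batf3 at MR only. Of 20 clock genes, 7 had both, 2 GR only (Arntl at percentile 75.4, and Tef) and 1 MR only (Hlf at 74.6). The clock repressor Per1 had 2 GR peaks and 1 MR peak at percentiles up to 94.3 and 87.4, and Nr1d1 3 and 2 at up to 93.5 and 51.3. Of 14 neuroblast transcription factors 4 had both, 2 GR only (Mycn and Tbx2) and 1 MR only (Hand1). Of 43 axon guidance genes 15 had both, 2 GR only and 1 MR only. Of 45 ribosomal protein genes 6 had both, 4 GR only (Rpl3, Rpl10, Rps3 and Rps16) and 1 MR only, Rpl12. Of 20 chaperones and co-chaperones of the receptors 2 had both, Fkbp5 and Hsf1, 1 GR only and 1 MR only. The ribosomal and chaperone lists had shares with both of 13.3% and 10%, near or under the 14.1% of all protein-coding genes. The other lists lay between 28.6% and 60%. Ribosomal genes were short, with a median of 3.78 kb, and 6.07% of protein-coding genes under 10 kb had both. Chaperone genes had a median of 12.2 kb, and 12.7% of genes of 10 to 50 kb had both. The lists were not matched for gene length. The balance of GR only and MR only in these lists depended on the threshold. With −log10 q of at least 5, the numbers with GR only and with MR only were 0 and 3 for AP-1 factors, 0 and 1 for neuroblast factors, 1 and 3 for axon guidance, 0 and 2 for chaperones and 2 and 3 for ribosomal proteins. They were 2 and 1 for DUSP phosphatases, 2 and 2 for clock genes and 0 and 3 for the glucocorticoid-induced regulators. Over all protein-coding genes, each symbol counted once, they were 491 and 1314, against 784 and 1401 with the full peak lists. With lists of equal length they were 1109 and 969 over all protein-coding genes. In that setting AP-1 factors and chaperones each had 1 and 1, neuroblast factors 3 and 1 and axon guidance 4 and 1. Ribosomal proteins had 5 and 1, DUSP phosphatases 1 and 0, clock genes 2 and 1 and glucocorticoid-induced regulators 2 and 0.

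**Figure D4:**
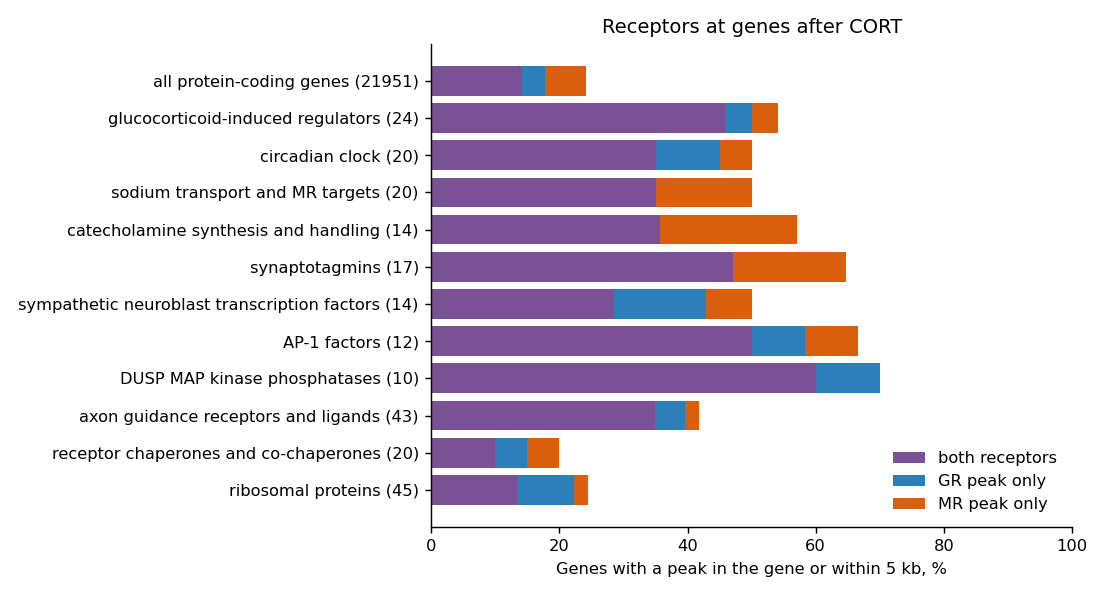
Percentage of genes (x axis) with peaks of both receptors, of GR only or of MR only in the gene or within 5 kb, for all protein-coding genes and for 11 gene lists, with the number of genes in parentheses. All protein-coding genes stand at 14.1%, 3.58% and 6.39%. The sodium transport, catecholamine and synaptotagmin lists show no gene with GR only.

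At the genes the study names, the receptors met at some sites and not at others. Fkbp5, an immunophilin co-chaperone that lowers the affinity of GR for CORT, had 12 GR and 15 MR peaks, forming 10 common, 2 GR-only and 3 MR-only sites. Its highest site, 4616 bp inside the gene from the start, reached 37.0 for GR and 49.7 for MR on the −log10 p scale. The Fkbp5 site with the perfect GRE ranked lower, at GR percentile 56.8 and MR percentile 87.4, so the closest match was not the highest site of the gene. Ddc, the decarboxylase that makes dopamine, had 5 GR and 8 MR peaks and 4 common sites. The highest was among the top 4 common sites of the data, at 46.0 for GR and 51.7 for MR. Syt2 had 2 GR and 5 MR peaks, and both GR peaks were at common sites, the highest at percentiles 97.9 and 97.0. Dusp4 had 1 common site, at percentiles 98.9 and 98.6, together with a GR-only and an MR-only site. Sgk1, a kinase induced by both receptors, had 2 peaks of each within the window, with highest percentiles of 45.6 and 55.7. The best GRE matches at the common sites of Syt2 and Dusp4 and at the intronic common site of Sgk1 had 4 mismatches. The second common site of Sgk1, at chr10:22004788-22005132, reached into the 5 kb window with its summit outside it, and had a GRE with 2 mismatches and percentiles of 89.4 for GR and 84.5 for MR.

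Where the receptors shared a site, their ranks went together in part. Spearman's rho of the −log10 p ranks was 0.456 over 6350 common sites. These points share the 2 lists and their ties, and are not replicates. The percentiles differed by at most 20 at 53.4% of sites. GR ranked higher by over 40 points at 559 sites (8.80%, 8.13 to 9.53) and MR at 812 sites (12.8%, 11.99 to 13.6). Percentiles were taken within full lists of unequal length, of which common sites held 61.0% for GR and 47.5% for MR. The part of this in the numbers of sites where GR or MR ranked higher was not tested. The relation was closer near gene starts, with rho of 0.512 at 605 sites within 1 kb and 0.449 to 0.457 farther out, given here without a test of the difference. With both peaks covering at least 50% of each other, rho was 0.526 over 3328 sites.

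**Figure D5:**
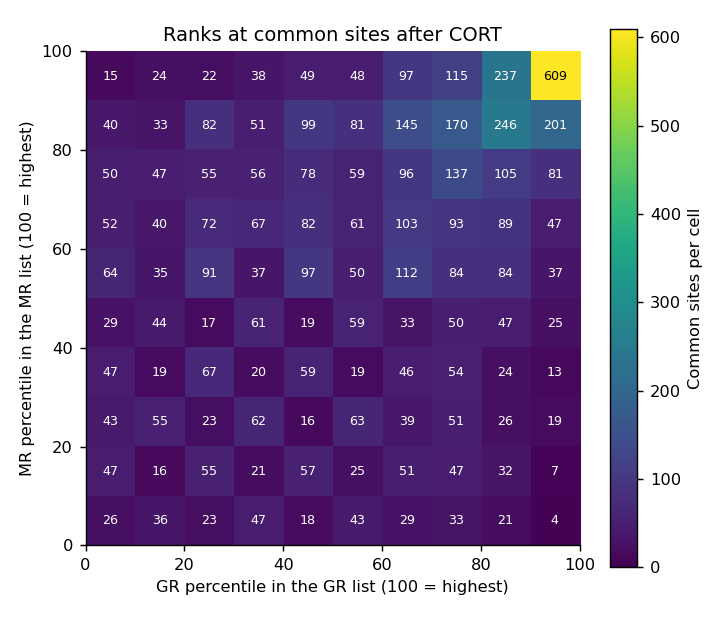
Number of common sites (colour and printed number) by GR percentile in the GR list (x axis) and MR percentile in the MR list (y axis), in cells of 10 by 10 points, with 100 the highest. The fullest cell, with 609 sites, is the top 10% of both lists, and the uneven neighbouring cells at lower ranks come from tied values.

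The strongest sites were nearly all common. Of 1067 sites with a GR peak above percentile 90, 97.8% (96.7 to 98.5) had an MR peak. Of 1355 sites with an MR peak above percentile 90, 92.5% (91.0 to 93.8) had a GR peak. The other receptor was also above percentile 90 at 57.1% of the former and 44.9% of the latter. It was at or below percentile 50 at 6.37% and 10.9%. The lists differed in length, with 10583 GR and 14608 MR peaks, and the part of this in the unequal shares was not tested. The highest common sites by the lower of the 2 percentiles lay at chr8:123786119-123786585 (70.8 for GR and 60.2 for MR), in an intron of Col4a2, a type IV collagen, at chr8:11381953-11382491 (50.4 and 54.4), in the Ddc intron given above, and in an intron of Macrod1 at chr19:7089865-7090604 (44.2 and 51.7).

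No difference in GREs was detected between sites where the ranks parted in either direction. A GRE was found at 44.7% of sites where GR ranked higher by over 40 points and at 43.9% of those where MR did, a difference of 0.82 points with an interval from −4.53 to 6.18. The share with a gene start within 1 kb was 10.1% and 7.68%, and the interval of that difference also included 0 (−0.62 to 5.64). An MR washout peak was found at 24.3% of the former and 37.2% of the latter, a difference of −12.9 points (−17.6 to −7.89), and an MR border pair at 6.49% and 12.6%, a difference of −6.15 points (−9.19 to −2.98). Both readouts come from MR libraries, and MR ranks differ between these groups by construction. Sites whose percentiles differed by at most 20 had an MR washout peak in 50.8% and an MR border pair in 24.6%.

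The sites with the largest rank differences were intronic or intergenic. GR ranked far above MR at a site near Gm10800 that overlapped an input border pair and a vehicle peak, in introns of Grik5, a kainate receptor subunit (GR percentile 87.9, MR percentile 0.81), and of Foxo3, a forkhead transcription factor (94.03 and 7.21), and 77759 bp downstream of the Olfm1 start (89.6 and 2.86). MR ranked far above GR in an intron of Gramd2 (GR percentile 1.56, MR percentile 98.2), in intergenic sequence nearest to Pmfbp1 (0.146 and 95.9) and Lyplal1 (2.29 and 95.1), and in an intron of Dgki, a diacylglycerol kinase (4.32 and 97.6).

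Among single-receptor sites, 3 of the 4 highest GR-only sites, near Rpusd4, Gm10800 and Gm10717, overlapped an input border pair and a vehicle peak. The fourth lay in an intron of Slc38a7, an amino acid transporter, at chr8:95852264-95852406 (GR percentile 96.0). After sites with such an overlap were left out, the next were near Tuba1c (95.3), in an intron of Wwc2 (94.1) and in an intron of Thra, the thyroid hormone receptor gene beside Nr1d1 (93.5). The 4 highest MR-only sites overlapped neither, and lay upstream of Gm826, in an intron of Kcnj6, a potassium channel subunit of neurons (chr16:94894636-94894711, MR percentile 97.6), and in intergenic sequence nearest to Mrm1 and to Syt1 (both 97.0). In all, 0.485% of GR-only, 0.553% of common and 0.328% of MR-only sites overlapped a vehicle peak or an input border pair. Without such peaks the excess of GR-only over MR-only sites at starts was 5.02 points and their difference in GREs −7.90 points.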

How the data were processed

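ChIP-nexus was performed on N2A cells, and the authors trimmed reads, used Bowtie 2 for alignment to GRCm38 (mm10), removed duplicates with the same random barcode, kept a mapping quality over 20 and called peaks on combined replicates with MACS2 2.1.1.20160309 against input (false discovery rate 0.05), with MACE for border pairs. In the deposited tables the score is the whole part of 10 times −log10 q. The deposited −log10 p was ranked here, and the −log10 q stands under a heading for fold enrichment, which the files used here do not give. The deposited summit offset stands under a q-value heading. The members, gene lists and comparisons were chosen with earlier results of these data known.

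Peaks were joined by 1 bp of overlap. Genes were those of GENCODE M21 with 5 kb to each side, and sites on the numbered chromosomes, X and Y were used for starts and sequence. The highest peak of each receptor stood for a site. The genes named were 5 that the study names, the 4 protein-coding genes outside the Gm20388 span with the most peaks of each kind, and the nearest protein-coding start at the 4 highest sites of each class and the 4 largest rank differences in each direction, ties by symbol. List members shown as examples were chosen in part after their values were seen. All 239 list entries matched. Methods were tested on simulated peaks with known answers. Alternatives changed the overlap, threshold, list length, gene distance and set, regions left out, ranked column, and GRE mismatches and window. Python 3.11.15, numpy 2.4.6, pandas 2.3.3, scipy 1.17.1, pysam 0.24.0 and matplotlib 3.10.9 were used.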

Additional observations from a re-analysis of the deposited data

How the results depend on the processing

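The excess of GR-only sites at gene starts kept its direction under every alternative tried, from 4.16 points with protein-coding starts to 6.74 points with no other summit within 5 kb (intervals all above 0). The GRE difference lay between −9.98 points with a 50 bp window and −3.26 points with at most 2 mismatches, except that it was −0.37 points with −log10 q of at least 5. That alternative, like those on list length, on vehicle and input-pair peaks and on sites far from the other receptor, was added for GREs after the data were seen.

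Other values moved beyond counting error. The shares of GR and of MR peaks at common sites were 31.4% and 22.8% with 50% of both peaks, 45.4% and 33.0% with summits within 50 bp, 64.7% and 41.8% with −log10 q of at least 5, and 52.2% and 54.8% with lists of equal length. Genes with both, GR only and MR only numbered 2800, 753 and 1363 in gene bodies alone, 2494, 751 and 1950 with −log10 q of at least 5, and 3095, 785 and 1403 when only protein-coding genes were counted. The shares of GR genes and of MR genes with both were 79.8% and 68.8% for protein-coding genes, 76.9% and 56.1% with −log10 q of at least 5, 69.5% and 72.5% with equal lists, and 79.9% and 65.4% with the nearest start only. In genes with both, more MR and more GR peaks were found in 36.2% and 10.1% with −log10 q of at least 5 and in 24.4% and 24% with equal lists, and more MR peaks in 34.4% when regions were counted. Spearman's correlation of the ranks at common sites was 0.526 with 50% of both peaks and 0.477 with summits within 50 bp. No paired analysis was possible because each condition is 1 list of combined replicates. The peak lists carry no read counts, and the effect of depth on which single-receptor sites were called was not tested.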
